A study of Bos indicus with 6 samples.

Results

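The genes described here are the orphan and metabolic nuclear receptors and the coregulators that nuclear receptors recruit. Members were taken by gene symbol: the NR-numbered receptors, the PPAR, RXR, ROR, THR and ESRR families, VDR, the NCOA coactivators and the NCOR corepressors, with NR3C1 and NR3C2 left out. The symbols took in 44 of the 24616 genes measured, 35 receptors and 9 coregulators. RNA was sequenced from the isthmus, the uterine segment of the oviduct, of 6 healthy multiparous Nelore cows (Bos indicus), taken on day 4 after gonadotropin-releasing hormone (GnRH) from the side of the corpus luteum (CL). The LF/LCL group (3 cows) was managed to ovulate a large follicle and form a large CL, and the SF/SCL group (3 cows) a small follicle and a small CL, so that the periovulatory endocrine milieu differed. Every cow received a progesterone-releasing device and 2 mg of estradiol benzoate 10 days before GnRH, and prostaglandin (PGF) at device removal and again 6 h later. LF/LCL cows were also given PGF when the device was inserted, and their device came out 42 h before GnRH, against 30 h in SF/SCL cows. The cows sequenced were chosen because they ranked at the far end of their group on follicle, CL and hormone measures, so they do not show the spread of whole groups. Libraries held 23899117 to 34193164 gene-assigned reads, and each value below is a read count divided by the size factor of its library, called a normalized count. Values in a sentence follow the order LF/LCL cows 617, 79 and 527, then SF/SCL cows 856, 489215 and 97.

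Nuclear receptors are transcription factors that sense hormones, lipids and other small molecules, and orphan receptors are those that lack a known natural ligand or were named before it was found. Many of them bind DNA as a pair with a retinoid X receptor. On DNA they recruit NCOA coactivators, which bring histone acetyltransferases, or NCOR corepressors, which bring the histone deacetylase HDAC3, and in the oviduct they share these coregulators with the estrogen and progesterone receptors.

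Cow 489215 stood apart from the other SF/SCL cows. It had the lowest of the 6 values in 22 of the 38 members that passed the filters on low and variable genes, against 35.7% of the 15387 genes tested, and the highest in 9, against 36.7%. Its library had 25472906 reads, a size factor of 0.751 and 16944 genes with at least 1 read, the fewest of the 6. When limma estimated a weight for each library, this cow received 0.0477 and the other 5 cows 1.06 to 4.26. Results are therefore given with all 6 libraries and without this cow.

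**Figure D1:**
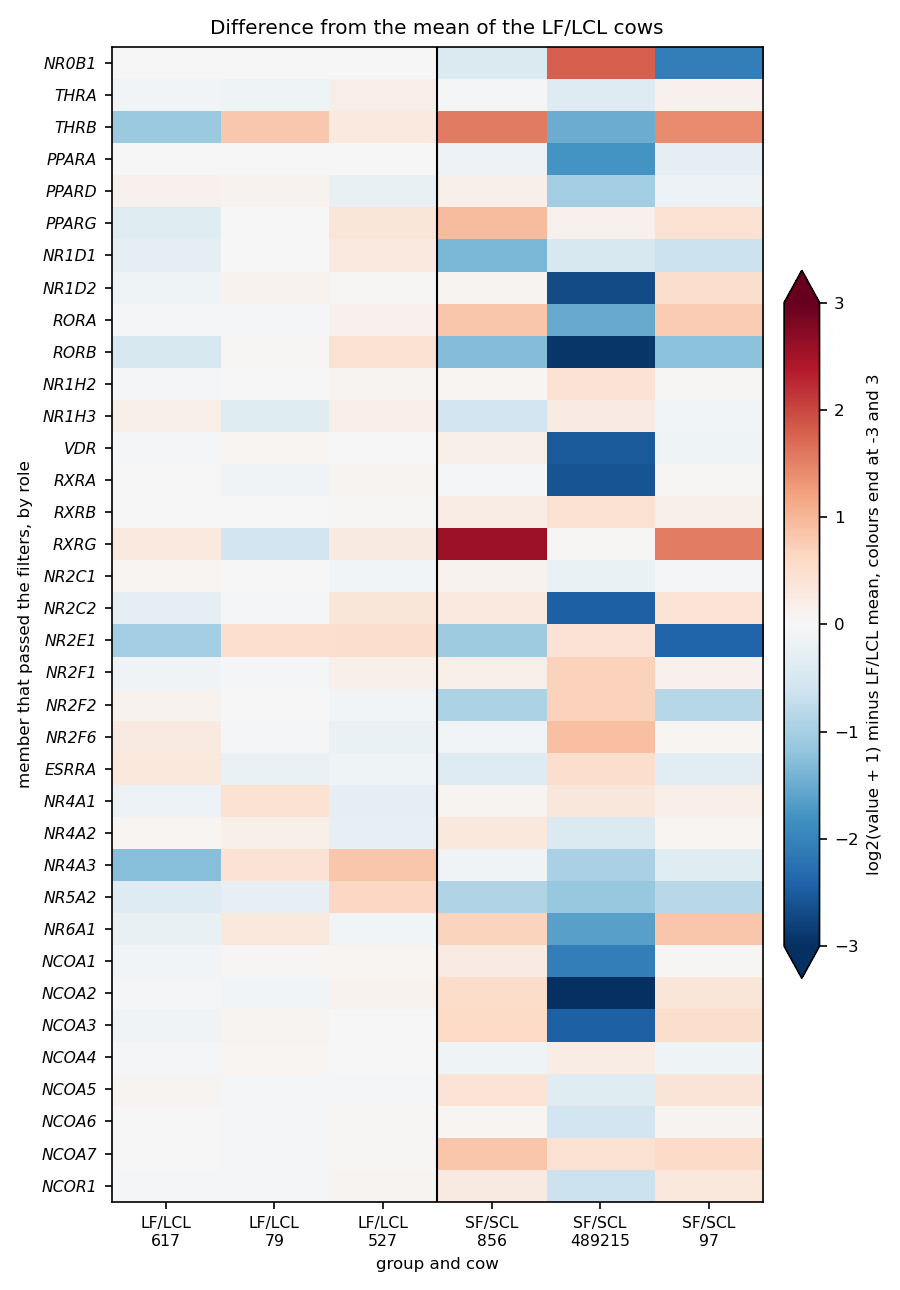
The rows are 36 of the 38 members that passed the filters, ordered by role, and each column is a cow; colour gives log2(value + 1) minus the mean of the LF/LCL cows, with the scale ending at -3 and 3. Cow 489215 lies far below the LF/LCL mean in members such as NCOA2, NCOA3, RXRA and VDR, and cows 856 and 97 do not.

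RORB, an orphan receptor of the ROR family, and NR1D1, the clock repressor REV-ERB alpha, were lower in every SF/SCL cow than in every LF/LCL cow. NCOA7, an estrogen receptor coactivator, was higher in every SF/SCL cow. In cows 856 and 97, 7 of 9 coregulators were above every LF/LCL cow, as were 26.9% of all genes tested, and NR2F2 was below every LF/LCL cow, as were 25.0%. Cow 489215 lay on the other side of the LF/LCL cows for NR2F2 and for 6 of these 7 coregulators, NCOA7 being the exception. Summed smooth muscle markers were lowest in cows 856 and 97 and highest in cow 489215. In that cow ACTA2, TAGLN, DES, CNN1 and SMTN were the highest, while MYLK, MYH11 and SYNPO2 lay below every LF/LCL cow. The part of these markers in these results was not tested. In bulk samples fewer cells of a type and less RNA per cell cannot be told apart.

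With all 6 libraries, limma with Benjamini-Hochberg adjustment called 0 of the 38 members at an adjusted p under 0.05, and it called 0% of the 15387 genes tested. At an unadjusted p under 0.05 there were 3 members, RORB, NCOA7 and NR1D1, against 8.66% of all genes, and without LF/LCL cow 79 there was 1. Counted on whole reads, edgeR called 0 members and 0 genes, with 5 members at an unadjusted p under 0.05 against 8.56% of all genes. DESeq2 called 2 members, RORB and NCOA7, against 2.66% of all genes. The groups did not overlap in 6 members, RORB, NCOA7, NR1D1, NR5A2, PPARA and RXRB, against 18.1% of all genes. These were 7.89% and 15.8% of the members for unadjusted p and for groups that did not overlap, near the shares of the whole table. With 3 cows against 3, an exact two-sided permutation test cannot go below p = 0.1, so none is given for single genes.

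Without cow 489215, limma called 9 of 38 members, or 23.7%, against 18.2% of 15495 genes. NCOA2, NCOA3, NCOA5, NCOA7, RORA and RXRG were higher in SF/SCL, 6 members against 10.3% of all genes. NR1D1, NR2F2 and RORB were higher in LF/LCL, 3 members against 7.92%. On whole reads without the same cow, edgeR called 9 members, against 18.1% of all genes, and DESeq2 10, against 25.2%, and each count included all 9 of the limma calls. With array weights, which keep all 6 libraries, limma called 10 members, 7 of them among the 9, against 29.8% of all genes. At an unadjusted limma p under 0.05 without the cow there were 16 members, or 42.1%, against 33.9% of all genes, and 22 members, or 57.9%, did not overlap, against 52.0%. The calls without this cow rest on 2 SF/SCL cows, and the edgeR and DESeq2 fits without it were added after its values were seen. The median log2 fold change of the members, SF/SCL over LF/LCL on the log2(value + 1) scale, was -0.12 with 6 libraries and 0.10 without the cow, beside -0.02 and 0.00 over all genes tested. Across every fit tried, the adjusted p of these 9 members was at least 0.999 at its highest, and at its lowest lay between 1.92e-13 for NR2F2 and 0.00945 for NCOA2. For NR5A2, RXRB and PPARA the lowest adjusted p of any fit were 0.0733, 0.0807 and 0.124, and the highest again at least 0.999.

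**Figure D2:**
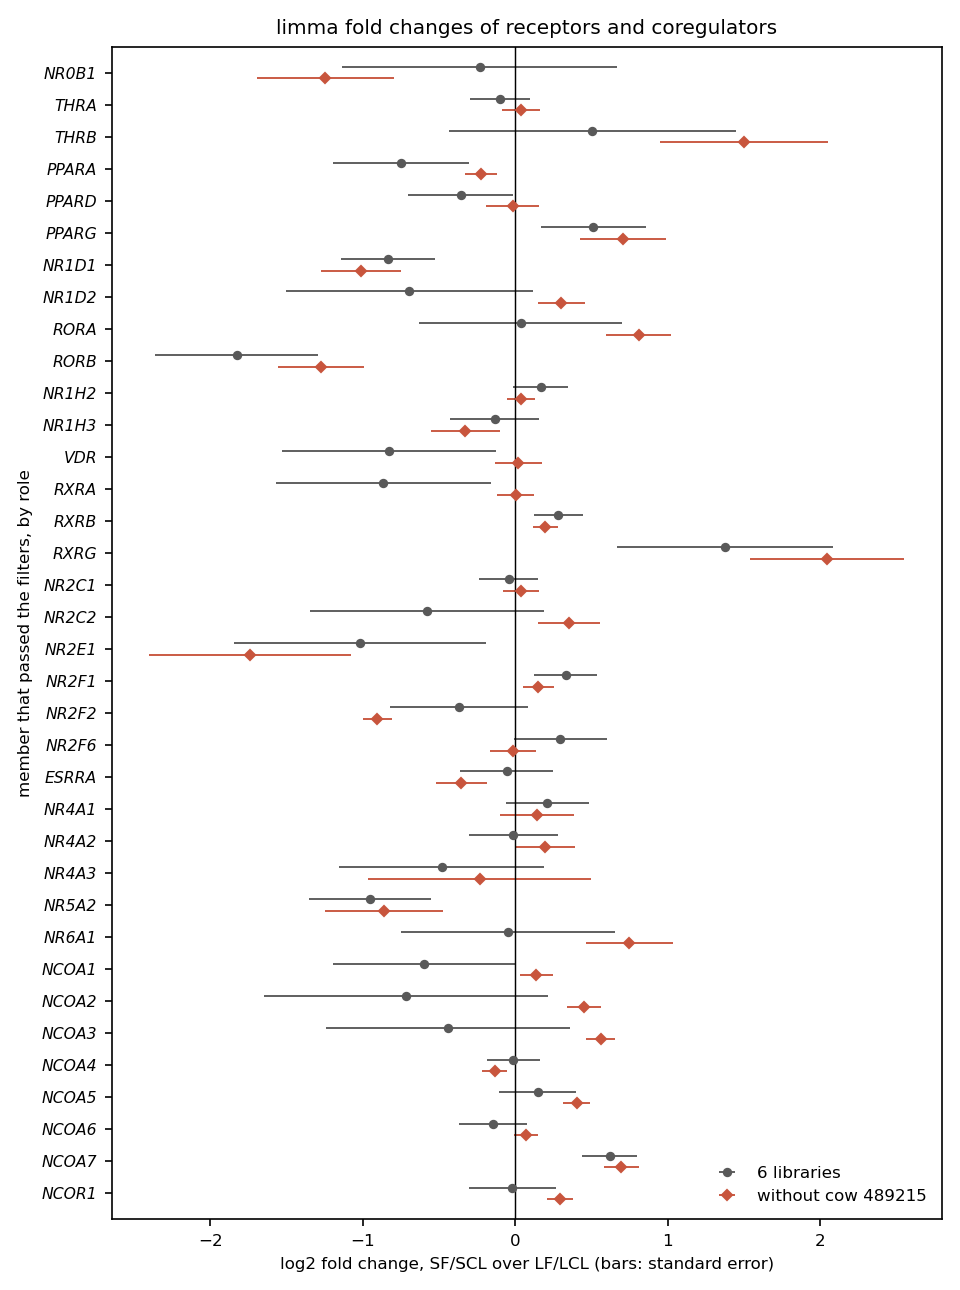
The x axis gives the limma log2 fold change of SF/SCL over LF/LCL and the rows are 36 of the 38 members tested; grey circles use 6 libraries, red diamonds leave out cow 489215, and bars are 1 standard error. RORB, NR1D1 and NCOA7 keep to the same side of 0 in both fits, whereas NCOA2 and NCOA3 move from -0.72 and -0.44 to 0.45 and 0.56.

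With all 6 libraries, the member with the lowest log2 fold change was RORB (ENSBTAG00000021699), a ROR family receptor best known from retina and brain. Its normalized counts were 286, 414 and 549.8 in LF/LCL and 162, 51.9 and 170.2 in SF/SCL. Every SF/SCL cow lay below every LF/LCL cow, and cow 489215 was the lowest, with 39 reads. The LF/LCL mean was 3.26 times that of SF/SCL, and the limma log2 fold change was -1.82 (SE 0.53) with an unadjusted p of 0.0125 and a Benjamini-Hochberg adjusted p of 0.424. In DESeq2 the adjusted p was 0.0432. Without cow 489215 the log2 fold change was -1.27 (SE 0.28), closer to 0, with a limma adjusted p of 0.0275. In that fit NR2E1 was lower than RORB, at -1.74 (SE 0.66), and was not called. RORB, RORA and NCOA7 each overlap a locus without a gene name in the RefSeq assembly of Bos indicus, and the sources do not say whether reads were counted by strand.

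RORA (ENSBTAG00000015904), which activates the clock gene ARNTL, had 99.4, 100.4 and 113 in LF/LCL and 188, 35.9 and 179 in SF/SCL. Both other SF/SCL cows lay above all LF/LCL cows, and cow 489215 lay below them, so the groups overlapped. The log2 fold change was 0.04 (SE 0.66) with 6 libraries and 0.81 (SE 0.21) without cow 489215, where the limma adjusted p was 0.0443. It was -0.37 without cow 856 and -0.33 without cow 97, so its sign rests on which SF/SCL cows are kept.

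The REV-ERB receptors repress ARNTL at the DNA elements that RORs activate. NR1D1 (ENSBTAG00000012178), or REV-ERB alpha, had normalized counts of 598, 711 and 876 in LF/LCL and 276, 515 and 462 in SF/SCL. All SF/SCL cows lay below all LF/LCL cows, here with cow 856 as the lowest and cow 489215 nearest to LF/LCL. The limma log2 fold change was -0.83 (SE 0.31) with an unadjusted p of 0.0331 and a Benjamini-Hochberg adjusted p of 0.514; without cow 489215 it was -1.01 (SE 0.26) with an adjusted p of 0.0427. NR1D2, or REV-ERB beta, ranged over 897 to 1412 in 5 cows and stood at 152 in cow 489215. NR1D2 overlaps THRB in the same assembly, so reads of this pair may not be told apart.

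Of the 12 clock genes found out of 15 listed, none was called by limma, edgeR or DESeq2 with 6 libraries and none had an unadjusted limma p under 0.05. Their median log2 fold change was -0.27. Without cow 489215 limma called 1, BHLHE41, a circadian repressor, and the median was 0.00. BHLHE41 had 576, 429.9 and 368 in LF/LCL and 2219, 186 and 2058 in SF/SCL, and it is named after its values were seen. Cows 856 and 97 lay far above the LF/LCL cows and cow 489215 below them, and the log2 fold change without that cow was 2.25 (SE 0.20). ARNTL, the activator on which RORs and REV-ERBs act, had 568, 646 and 602 in LF/LCL and 654, 684 and 456 in SF/SCL. Its groups overlapped, and its log2 fold change was -0.04 (SE 0.23) with an unadjusted limma p of 0.877.

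PPARA (ENSBTAG00000008063) induces genes of fatty acid oxidation. Its normalized counts were 815, 829.7 and 831 in LF/LCL, a coefficient of variation of 1.05%, and 725, 237 and 686 in SF/SCL. The groups did not overlap, with cow 489215 far below cows 856 and 97. The limma log2 fold change was -0.75 (SE 0.45) with an unadjusted p of 0.141, and without cow 489215 it was -0.23 (SE 0.10) with an adjusted p of 0.179. PPARD, found in most tissues, ranged over 456 to 589 in 5 cows and stood at 259.6 in cow 489215. PPARG, the receptor that drives fat cell differentiation, had 117, 153 and 194 in LF/LCL and 293, 165 and 209 in SF/SCL, with overlapping groups.

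Of the PPAR targets, 22 of 23 listed genes were found in 23 table entries, and 19 entries were tested. ANGPTL4 labels 2 entries, and the authors elsewhere give the identifier of the second, ENSBTAG00000021811, the name ANGPT4. Without that entry 18 were tested and the median log2 fold change was -0.03 with 6 libraries and -0.10 without cow 489215. None was called by limma or edgeR with 6 libraries and 1 by DESeq2; at an unadjusted limma p under 0.05, 3 were higher in SF/SCL and 0 lower. CPT1B, the muscle form of the enzyme that admits fatty acids to mitochondria, had 944, 715 and 631 in LF/LCL and 2898, 1049 and 2721 in SF/SCL. No SF/SCL value fell within the LF/LCL range, and the log2 fold change was 1.43 (SE 0.42), with an unadjusted limma p of 0.0135. CD36, a fatty acid transporter, had 318, 319 and 314 in LF/LCL and 487, 397 and 503 in SF/SCL, again without overlap, and a log2 fold change of 0.53 (SE 0.22) with an unadjusted limma p of 0.0439. PDK4, a kinase that inhibits pyruvate dehydrogenase, had 661, 1864 and 3155 in LF/LCL and 3136, 5769 and 3892 in SF/SCL, with overlap through LF/LCL cow 527, and a log2 fold change of 1.39 (SE 0.57) with an unadjusted limma p of 0.0485. Without cow 489215 limma called 3 entries in each direction, the higher being CPT1B, CD36 and CPT1A, the liver form of the same enzyme as CPT1B. The 3 lower in SF/SCL were FABP3, a fatty acid-binding protein, at -3.49 (SE 0.66), PLIN2, a lipid droplet coat protein, at -0.60 (SE 0.13), and ACADM, an enzyme of fatty acid oxidation, at -0.60 (SE 0.12) on the log2 scale. These and CPT1A are named after their values were seen. FABP3 had 2577, 1087 and 2049 in LF/LCL and 72.9, 2319 and 341 in SF/SCL. Over all entries the median log2 fold change was -0.13, against -0.03 with 6 libraries.

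The liver X receptors sense oxysterols. NR1H2 (LXR beta) ranged from 2056 to 2283 in 5 cows and was 2893 in cow 489215. NR1H3 (LXR alpha) ranged from 445 to 783, and neither receptor separated the groups. NR1H4, the bile acid receptor FXR, had 0 reads in every library. Of 10 LXR targets, 8 were tested, with 1 higher and 1 lower in SF/SCL at an unadjusted limma p under 0.05; limma and edgeR called 0 of them and DESeq2 1. PLTP, which transfers phospholipids between lipoproteins, had 2495, 2558 and 2725 in LF/LCL and 6554, 3709 and 5691 in SF/SCL. Every SF/SCL cow lay above every LF/LCL cow, with a log2 fold change of 1.00 (SE 0.24) and an unadjusted limma p of 0.00517. LPCAT3, a phospholipid-remodelling acyltransferase, had 2169.7, 2214 and 1779 in LF/LCL and 836, 1954 and 788 in SF/SCL. Cow 489215 lay within the LF/LCL range, and the log2 fold change was -0.91 (SE 0.37) with an unadjusted limma p of 0.0473. The fit without cow 489215 called 2 targets higher and 1 lower in SF/SCL, and the list median was 0.04, against -0.08 with 6 libraries. PLTP and LPCAT3 thus differed in sign, and the third called target was ABCG1, a cholesterol exporter, with 7826, 5889.8 and 8491 in LF/LCL and 19927, 1819 and 20550.4 in SF/SCL. ABCG1 is named after its values were seen.

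RXRG (ENSBTAG00000016801), RXRB (ENSBTAG00000000602) and RXRA are the shared partners of many of these receptors. RXRG was sparsely read, with 17.8, 9.39 and 17.6 normalized counts in LF/LCL and 89.6, 14.6 and 43.4 in SF/SCL. All LF/LCL cows lay below cows 856 and 97, and cow 489215 lay within their range, with 118 reads in cow 856, 40 in cow 97 and 11 in cow 489215. The log2 fold change was 1.37 (SE 0.71) with an unadjusted limma p of 0.0971, and without cow 489215 it was 2.05 (SE 0.50) with an adjusted p of 0.0374. Without cow 856 it was 0.78, and without cow 97 RXRG did not pass the filter on variable genes. RXRB had 2283, 2271 and 2366 in LF/LCL and 2679.8, 3158 and 2604 in SF/SCL. Its groups did not overlap, with a LF/LCL coefficient of variation of 2.24% and cow 489215 highest. For RXRB the log2 fold change was 0.28 (SE 0.16), with an unadjusted limma p of 0.124; without cow 489215 it was 0.20 (SE 0.08) with an adjusted p of 0.148. RXRA ranged over 573 to 656 in 5 cows and stood at 101 in cow 489215. Its log2 fold change of -0.86 (SE 0.71) became 0.00 (SE 0.12) without that cow.

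**Figure D3:**
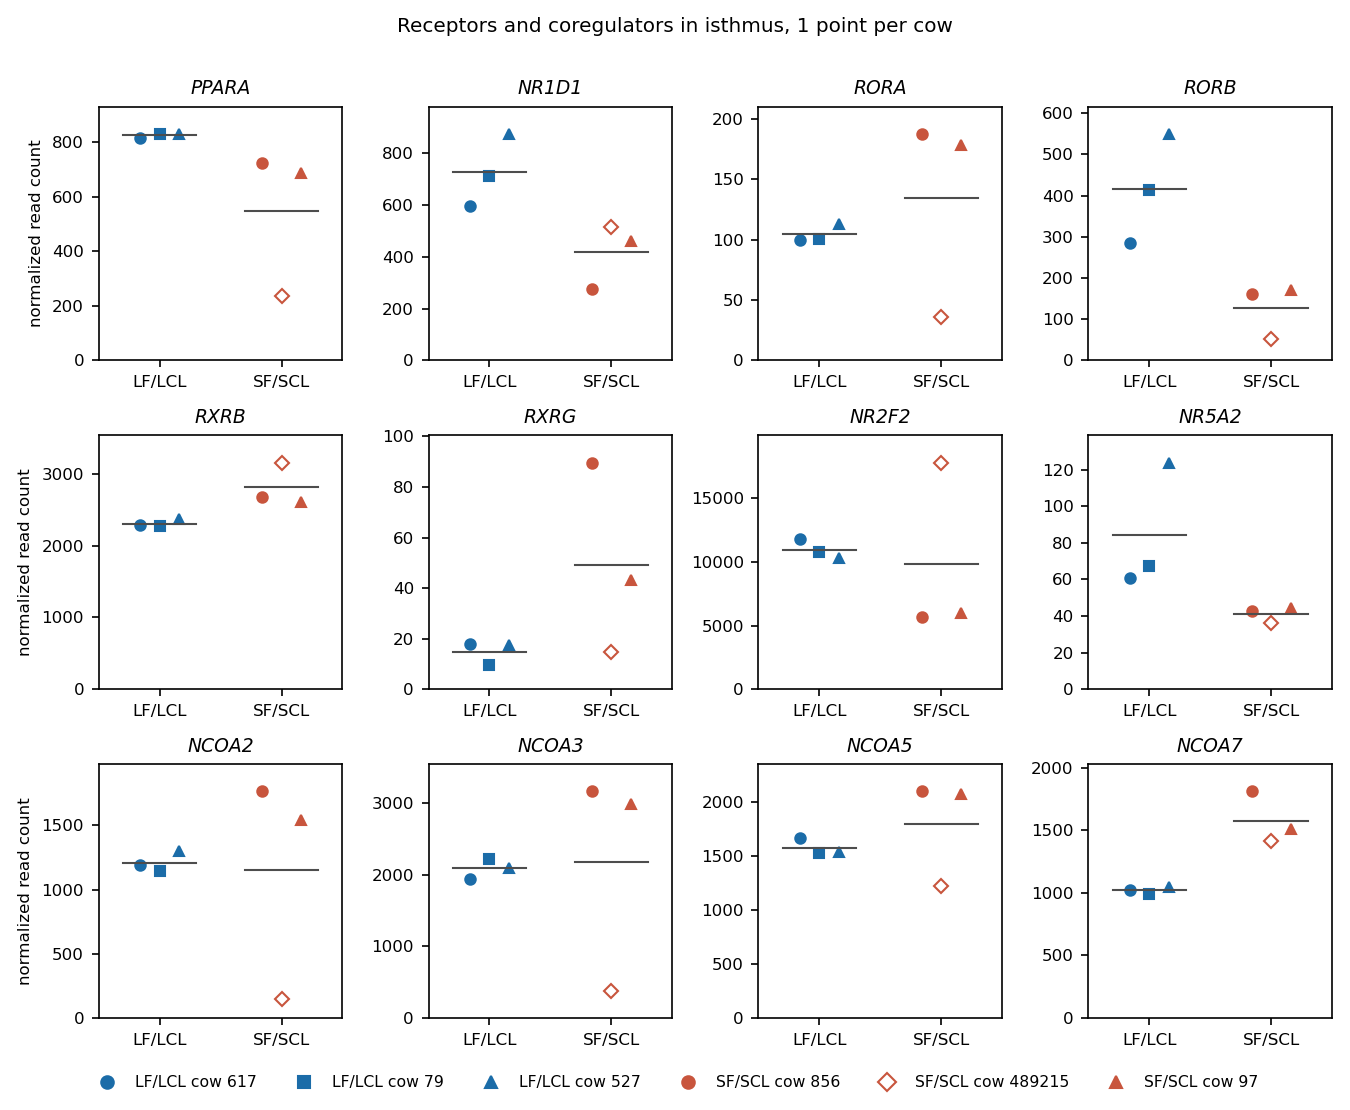
Each panel is a member, each point a cow and each line a group mean, with normalized counts on a linear axis from 0; the open diamond is cow 489215. In PPARA, NR1D1, RORB, RXRB, NR5A2 and NCOA7 the groups do not overlap, and in NCOA2, NCOA3, NCOA5 and RORA the open diamond lies below all other points.

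The vitamin D receptor VDR ranged over 359 to 445 in 5 cows and stood at 67.9 in cow 489215, with overlapping groups. Of 10 vitamin D handling genes, 7 were tested. LRP2, the endocytic receptor megalin that takes up vitamin D with its carrier, had 9318, 13394 and 14466 in LF/LCL and 1161, 3167 and 1331 in SF/SCL. The groups lay far apart, with cow 489215 the highest of its group, and the log2 fold change was -2.84 (SE 0.41) with an unadjusted limma p of 0.000325 and a Benjamini-Hochberg adjusted p of 0.351. GC, the vitamin D carrier, had 82.7, 21.6 and 35.1 in LF/LCL and 117, 150.4 and 202 in SF/SCL, without overlap, and a log2 fold change of 1.91 (SE 0.55) with an unadjusted limma p of 0.0114. TRPV6, an epithelial calcium channel, had 253, 194 and 168 in LF/LCL and 489.9, 252 and 384 in SF/SCL, with cow 489215 inside the LF/LCL range, and a log2 fold change of 0.84 (SE 0.33) with an unadjusted limma p of 0.0435. In this list limma and edgeR called 0 genes and DESeq2 1, and the median log2 fold change was -0.07. Without cow 489215 limma called 1 gene higher and 2 lower in SF/SCL, and the median was -0.22. The lower pair was LRP2 and S100G, a calcium-binding protein, which had 622, 1292 and 642 in LF/LCL and 80.5, 1659 and 139.8 in SF/SCL. S100G is named after its values were seen.

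Among the thyroid hormone receptors, THRA ranged from 1934 to 2876, and THRB had 34.5, 134 and 94.0 in LF/LCL and 227, 26.6 and 206 in SF/SCL. For THRB, cows 856 and 97 were the highest and cow 489215 the lowest. THRA overlaps MED24 in the Bos indicus assembly. The 11 thyroid hormone handling genes listed were all found, in 12 table entries, and 11 entries were tested; limma, edgeR and DESeq2 called 0 and none had an unadjusted limma p under 0.05. Leaving out cow 489215, limma called 1, SLC16A10, an amino acid and thyroid hormone transporter, and the list median was 0.50, against 0.11 with 6 libraries. SLC16A10 had 47.1, 37.5 and 54.5 in LF/LCL and 194, 9.32 and 207 in SF/SCL, and is named after its values were seen.

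NR2F2 (ENSBTAG00000018007), or COUP-TFII, is an orphan receptor of mesenchymal tissues in the female tract. Its normalized counts were 11771, 10758 and 10311 in LF/LCL and 5668, 17792 and 6020.3 in SF/SCL. Here cows 856 and 97 lay below all LF/LCL cows and cow 489215 lay above all of them. The log2 fold change was -0.37 (SE 0.45) with an unadjusted limma p of 0.442, and without cow 489215 it was -0.90 (SE 0.09) with an adjusted p of 0.00333. NR2F1 (COUP-TFI) ranged over 2362 to 2836 in 5 cows and stood at 4069 in cow 489215. NR2F6 (EAR2) ranged over 1462 to 2018 in 5 cows and stood at 3174 in cow 489215. For both, the groups overlapped.

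The summed normalized counts of 9 smooth muscle markers, of 10 listed, were 926324, 857181 and 808563 in LF/LCL and 375799, 1275159 and 436809 in SF/SCL. Over the 6 cows together ACTA2 had the highest counts of the list, although MYH11 exceeded it in cow 97. No marker was at 0 in all libraries. The 6 cows fall in the same order for this sum and for NR2F2, from cow 489215, the highest, to cow 856, the lowest. This match was picked after the values were seen, and single markers depart from it. Cow 489215 was highest in ACTA2, TAGLN, DES, CNN1 and SMTN and inside the LF/LCL range in LMOD1. It was below every LF/LCL cow in MYLK, MYH11 and SYNPO2. The part of the sum in the NR2F2 result was not tested.

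TR2 and TR4, encoded by NR2C1 and NR2C2, are orphan repressors and activators. NR2C1 ranged from 566 to 706. NR2C2 ranged over 608 to 996 in 5 cows and stood at 137 in cow 489215, a gap that NR2C1 did not show. NR2E1 (TLX), a receptor of neural stem cells, had 24.1, 72.3 and 72.9 in LF/LCL and 23.5, 67.9 and 8.67 in SF/SCL. Its groups overlapped with 6 libraries and did not without cow 489215. Of the fits above, limma with array weights alone called it. NR2E3, a photoreceptor gene, had 0 reads in every library.

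NR0B1 (DAX1), which lacks a DNA-binding domain and represses steroidogenic genes, had 287, 291 and 289.9 in LF/LCL and 215, 1005 and 68.3 in SF/SCL. The LF/LCL cows differed by a coefficient of variation of 0.750%, while SF/SCL cows spread on both sides of them. Its log2 fold change was -0.23 (SE 0.90) in limma and 0.54 in edgeR, of opposite sign, and neither passed the threshold. Without cow 489215, the highest of the 6, it was -1.25 (SE 0.45) with an unadjusted limma p of 0.0297 and was not called, and limma with array weights called it. NR0B2 (SHP) had at most 5 reads in any library.

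NR5A2 (ENSBTAG00000009265), or LRH-1, regulates cholesterol and steroid metabolism. It had 60.7, 67.6 and 124 normalized counts in LF/LCL and 42.5, 35.9 and 44.4 in SF/SCL. The groups did not overlap, although LF/LCL cows 617 and 79 lay closer to SF/SCL than to cow 527. The log2 fold change was -0.95 (SE 0.40) with an unadjusted limma p of 0.0502, and without cow 489215 it was -0.86 (SE 0.39) with an adjusted p of 0.173. NR5A1 (SF-1), the adrenal and gonadal factor, had at most 5 reads in any library. NR6A1 (GCNF), a germ cell receptor, ranged from 58.6 to 85.4 in LF/LCL, with 109, 21.3 and 122 in SF/SCL. Of 7 steroidogenic genes listed, 6 were found and 4 tested; limma, edgeR and DESeq2 called 0, none had an unadjusted limma p under 0.05, and the median log2 fold change was 0.18 with 6 libraries and 0.08 without cow 489215.

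Estrogen-related receptors control mitochondrial genes. ESRRA ranged over 931 to 1510.3 in 5 cows and stood at 1761 in cow 489215. It overlaps TRMT112 in the Bos indicus assembly. ESRRG had 5.23, 7.51 and 9.66 in LF/LCL and 64.6, 0 and 71.5 in SF/SCL, on 85 reads in cow 856, 66 in cow 97 and 0 in cow 489215, where up to 3 reads could have been missed. It did not pass the filter because its mean over the 6 libraries was below its SD, so it was not tested, and it is named after its values were seen. ESRRB had 1, 0 and 11 reads in LF/LCL and 0 in each SF/SCL cow.

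The NR4A receptors are immediate early genes that need no ligand. NR4A1 had 347, 537 and 318 in LF/LCL and 411, 497 and 449.8 in SF/SCL. NR4A2 was highest in cow 856, at 339.5, and lowest in cow 489215, and NR4A3 had at most 24 reads in any library. Groups overlapped in each, and none had an unadjusted limma p under 0.05. Of 13 other immediate early genes, 12 were tested, with 1 higher and 2 lower in SF/SCL at an unadjusted limma p under 0.05; limma and edgeR called 0 and DESeq2 1. EGR3, a zinc finger factor, had 20.9, 29.1 and 25.5 in LF/LCL and 3.80, 3.99 and 3.25 in SF/SCL, without overlap, and a log2 fold change of -2.47 (SE 0.42) with an unadjusted limma p of 0.000725. EGR2 had 36.6, 24.4 and 13.2 in LF/LCL and 5.32, 3.99 and 6.50 in SF/SCL, also without overlap, and a log2 fold change of -1.95 (SE 0.52) with an unadjusted limma p of 0.00831. Both EGR genes were at low counts, near the floor of 3 reads in SF/SCL. DUSP1, a phosphatase of MAP kinases, had 3071, 3770.4 and 3541 in LF/LCL and 4302, 8184 and 5807 in SF/SCL, without overlap, and a log2 fold change of 0.77 (SE 0.26) with an unadjusted limma p of 0.0237. The list median was 0.22 with 6 libraries and -0.04 without cow 489215, when limma called 0 genes higher and 1 lower.

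Coregulators varied little among LF/LCL cows, with coefficients of variation from 2.16 to 6.69%; the median over all 38 members was 8.66% and over all genes tested 12.02%. NCOA7 (ENSBTAG00000011911), an estrogen receptor-associated coactivator, had 1027, 988 and 1049 in LF/LCL and 1811, 1411 and 1509.7 in SF/SCL. All SF/SCL cows, cow 489215 included, lay above all LF/LCL cows. The SF/SCL mean was 1.54 times that of LF/LCL, and the limma log2 fold change was 0.62 (SE 0.18) with an unadjusted p of 0.0113 and a Benjamini-Hochberg adjusted p of 0.420. In DESeq2 the adjusted p was 0.0482. Without cow 489215 the log2 fold change was 0.69 (SE 0.11) with a limma adjusted p of 0.0113.

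The p160 coactivators NCOA1, NCOA2 and NCOA3 bind the activation surface of nuclear receptors. NCOA2 (ENSBTAG00000020312) had 1189, 1143 and 1301 in LF/LCL and 1764, 145 and 1545 in SF/SCL. In NCOA2, cows 856 and 97 lay above all LF/LCL cows, while the LF/LCL mean was 8.35 times the value of cow 489215. Its limma log2 fold change was -0.72 (SE 0.93) with an unadjusted p of 0.468, and without cow 489215 it turned to 0.45 (SE 0.11) with an adjusted p of 0.0374. NCOA3 (ENSBTAG00000007489) had 1947, 2219.8 and 2101 in LF/LCL and 3163, 383 and 2994 in SF/SCL. The SF/SCL cows took the same places as in NCOA2, and the LF/LCL mean was 5.45 times the value of cow 489215. Its limma log2 fold change of -0.44 (SE 0.80), with an unadjusted p of 0.601, turned to 0.56 (SE 0.09) without that cow, with an adjusted p of 0.0127. On whole reads with 6 libraries, edgeR and DESeq2 gave NCOA3 0.064 and 0.062, opposite in sign to limma. NCOA1 had 1644, 1789 and 1834 in LF/LCL and 2083, 418 and 1789 in SF/SCL, so that cow 97 fell inside the LF/LCL range.

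NCOA5 (ENSBTAG00000014186), a coactivator that binds estrogen receptors, had 1673, 1529 and 1541 in LF/LCL and 2100.2, 1228 and 2073 in SF/SCL. Cow 489215 was again the lowest and cows 856 and 97 the highest. Its log2 fold change was 0.15 (SE 0.25) with an unadjusted limma p of 0.579, and without cow 489215 0.40 (SE 0.09) with an adjusted p of 0.0290. NCOA6, which joins histone methyltransferase complexes, had 3895, 3826 and 3994 in LF/LCL and 4087, 2617 and 4109.6 in SF/SCL. NCOA4, also the autophagy receptor for ferritin, ranged from 3423 to 3721 in LF/LCL, with 3257, 4204 and 3252 in SF/SCL. NCOA4 differed from the other NCOA members in that cow 489215 was the highest and cows 856 and 97 the lowest.

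NCOR corepressors bind nuclear receptors without an activating ligand. NCOR1 had 5603, 5522 and 6063 in LF/LCL and 6921, 3664 and 7119 in SF/SCL. As in NCOA2, cow 489215 was the lowest and cows 856 and 97 were the highest. It was not called by limma with 6 libraries at equal weight or without cow 489215, and it was called by limma with array weights and by DESeq2 without that cow. In all, cow 489215 was the lowest of 6 in 7 of 9 coregulators and in 15 of 29 receptors tested. Cows 856 and 97 lay above every LF/LCL cow in 7 of 9 coregulators and in 13 of 38 members, against 26.9% of all genes. They lay below every LF/LCL cow in 9 of 38 members, against 25.0%.

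Among 19 other coregulators listed, 18 were found and 17 tested; limma, edgeR and DESeq2 called 0 with 6 libraries and none had an unadjusted limma p under 0.05. Once cow 489215 was left out, limma called 4 higher in SF/SCL, NRIP1, TBL1X, EP300 and LCOR, and 1 lower, PPARGC1A; these are named after their values were seen. NRIP1, a ligand-dependent corepressor, had 1746, 2118 and 2590.2 in LF/LCL and 5151, 584 and 5602 in SF/SCL. PPARGC1A, the coactivator of mitochondrial biogenesis, had 723, 893 and 827 in LF/LCL and 389, 880 and 457 in SF/SCL, with cow 489215 inside the LF/LCL range. The list median was -0.26 with 6 libraries and 0.11 without cow 489215. Of 11 nuclear receptors outside the symbols used, 10 were found and 9 tested, with 0 called by limma, edgeR or DESeq2, none at an unadjusted limma p under 0.05, and a median of 0.12; without cow 489215 limma called 1, ESR1, and the median was 0.34. ESR1, the estrogen receptor alpha, had 3571, 3572 and 3834 in LF/LCL and 7235, 608 and 8211 in SF/SCL and is named after its values were seen.

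Markers of the cell types in the tube wall also differed between these cows, and the gene highest in counts is given for each list over the 6 cows together. The 13 ciliated epithelium markers found of 15, with CAPS the highest in counts, summed to 46451, 43673 and 37386 in LF/LCL and 65140, 34257 and 71534 in SF/SCL. The 11 markers found of 12 for secretory and general epithelium summed to 53794, 41571 and 35745 in LF/LCL and 327515, 102695 and 389314 in SF/SCL. OVGP1, the oviductal glycoprotein, was the highest in counts of that list through cows 856 and 97, and EPCAM exceeded it in the other 4 cows. OVGP1 had 287, 1782 and 1949.9 in LF/LCL and 271794, 729.6 and 325158 in SF/SCL. Without OVGP1 the sums were 53507, 39789 and 33795 in LF/LCL and 55721, 101965 and 64156 in SF/SCL. Cow 489215 thus had the highest sum without OVGP1, while its OVGP1 value lay inside the LF/LCL range. In that list WFDC2 was highest in cow 489215, at 29355, whereas PAX8 was lowest there, at 469. Muscle and epithelial markers of the labelled tissue were thus present in all 6 libraries. With 6 libraries limma and edgeR called 0 ciliated, epithelial or smooth muscle markers, and DESeq2 called 1 ciliated, 2 secretory or general epithelial and 1 smooth muscle markers. At an unadjusted limma p under 0.05, 2 ciliated and 4 epithelial markers were higher in SF/SCL and 2 smooth muscle markers lower. When cow 489215 was left out, limma called 10 of 13 ciliated and 3 of 10 epithelial markers higher in SF/SCL, and 7 of 9 smooth muscle markers lower.

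Mesothelium, the outer covering, had 5 of 5 markers found, with MSLN the highest in counts, although WT1 exceeded it in LF/LCL cows 617 and 79, and sums of 2452, 2913 and 3314 in LF/LCL and 26249, 3483 and 26728 in SF/SCL. Without MSLN the sums were 1644, 2039.6 and 1443 in LF/LCL and 8659, 1184 and 8630.1 in SF/SCL. These sums rest on MSLN and WT1, while LRRN4 went the other way, with 283, 412 and 175 in LF/LCL and 3.80, 5.33 and 16.3 in SF/SCL, and UPK3B was highest in cow 97 and lowest in cow 856. Fibroblast markers, 9 of 9 with DCN the highest in counts, summed to 106233, 133775 and 140422 in LF/LCL and 67266, 99623 and 67565 in SF/SCL. Endothelial markers, 7 of 8 with VWF the highest in counts, summed to 10914, 13434 and 10791 in LF/LCL and 7658, 14432 and 8816 in SF/SCL. Cows 856 and 97 thus had the highest mesothelial and ciliated sums and the lowest muscle, fibroblast and endothelial sums of the 6. Nerve and Schwann cell markers, 8 of 8 with S100B the highest in counts, summed to 9514, 8226 and 6574 in LF/LCL and 35305, 14821 and 31538 in SF/SCL. Without S100B the sums were 4114, 4111 and 3990.3 in LF/LCL and 3020.1, 5968 and 2511 in SF/SCL, so that cows 856 and 97 turned from the highest to the lowest. Leukocyte markers, 10 of 10 with CSF1R the highest in counts, summed to 2396, 4011 and 4369 in LF/LCL and 3557, 2765 and 3265 in SF/SCL. Adipocyte markers, 4 of 6 with CIDEA the highest in counts, stayed between 29.3 and 139.8, and erythrocyte markers, 5 of 5 in 6 table entries with AHSP the highest in counts, between 7.03 and 25.3. In single cows another gene had the highest counts, PTPRC in cow 617 and CD8A in cow 489215 for leukocytes, PMP22 in cow 527 for nerve, EMCN in cow 489215 for endothelium and MYH11 in cow 97 for smooth muscle. Among these 7 lists, limma and edgeR called 0 markers with 6 libraries and DESeq2 called 2 fibroblast and 1 nerve markers. At an unadjusted limma p under 0.05, 4 fibroblast and 1 endothelial markers were lower in SF/SCL, and nerve markers had 1 in each direction. When cow 489215 was left out, limma called 6 of 9 fibroblast and 3 of 7 endothelial markers lower, 1 nerve marker higher and 2 lower of 7, and 1 mesothelial marker in each direction of 2 tested. That fit called 0 leukocyte, erythrocyte and adipocyte markers, which had 0 at an unadjusted limma p under 0.05 with 6 libraries. Of the 6 adipocyte markers listed, 4 are also in the list of PPAR targets. The mesothelial markers did not pass the filters on low and variable genes with 6 libraries. No marker found in any of the 10 marker lists was at 0 in all 6 libraries. Cows 856 and 97 thus differed from the LF/LCL cows in the makeup of these markers as well as in receptors and coregulators, and the part of the markers in those results was not tested.

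**Figure D4:**
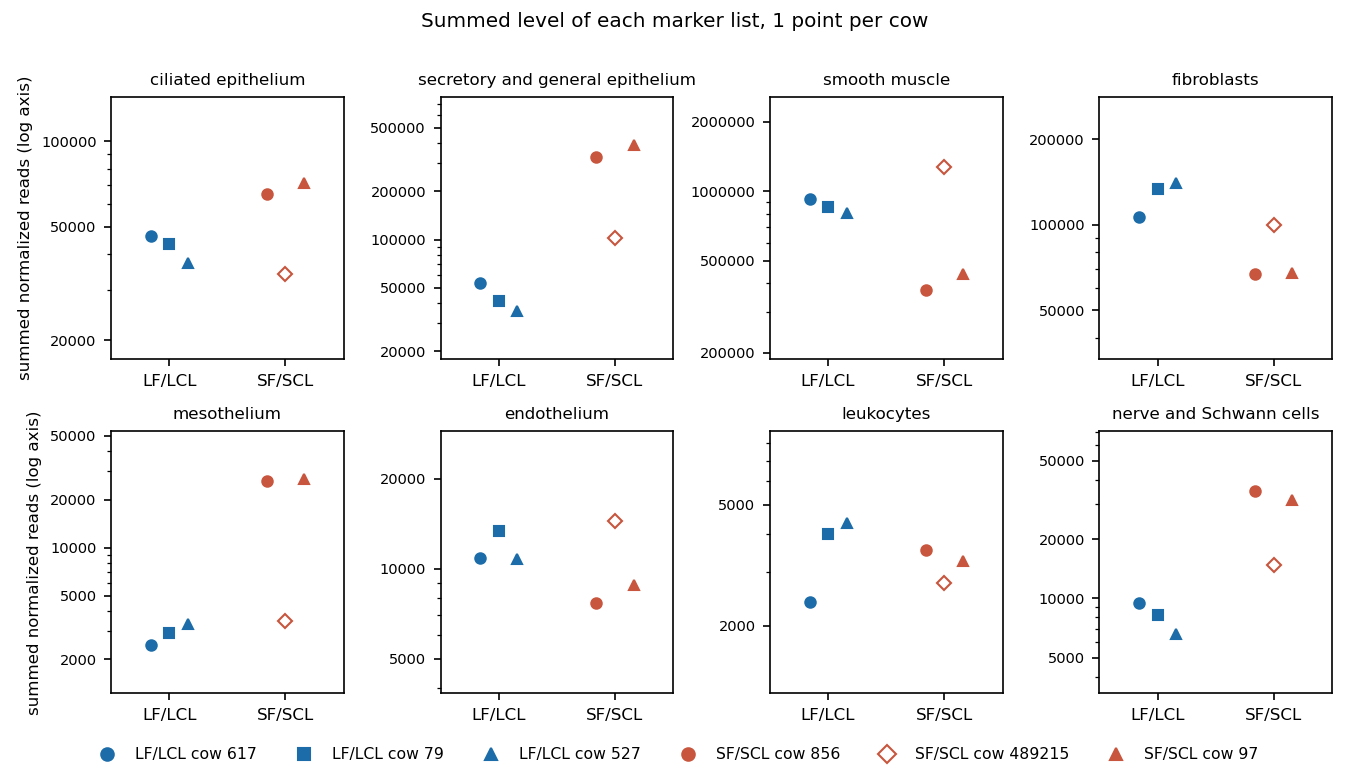
Each panel is a marker list and each point a cow, with summed normalized counts on a log axis; the open diamond is cow 489215. Cows 856 and 97 lie below the other 4 cows for smooth muscle and above them for mesothelium, and cow 489215 has the highest smooth muscle sum, 1275159.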

How the data were processed

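RNA from the isthmus of 6 cows was sequenced by the authors as polyA-selected, paired-end libraries. The authors mapped the reads to the masked UMD 3.1 assembly of Bos taurus with TopHat2 2.0.8 and Bowtie2 2.1.0, counted unique reads per Ensembl gene with HTSeq 0.5.4p2, and deposited signal values, each a gene count divided by the DESeq 1.12.1 size factor of its library. The strand setting of the counting is not stated. Whole reads were recovered by multiplying back. The check covered low values only, and in each library 100% of them were whole within 0.1. Totals ran from 23899117 to 34193164 reads, and the floor of 3 reads covers counting error only.

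The fit used limma 3.58.1 (lmFit, then eBayes with trend and robust) in R 4.3.3 on log2(value + 1). It covered the 15387 genes whose mean over 6 libraries was above 5 and above their SD, with Benjamini-Hochberg adjustment over all of them. Groups were compared as SF/SCL over LF/LCL. Alternatives were edgeR 4.0.16 (quasi-likelihood, TMM) and DESeq2 1.42.0 (Wald test) on recovered reads, TMM rescaling, pseudocounts of 0.5 and 5, other filters, eBayes without trend and robust, limma array weights, and leaving out each cow. DESeq2 and edgeR without cow 489215 were added after seeing the data.

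The members and lists were chosen with earlier results of these data known. Values in each cow with fold changes are given for members at an unadjusted p under 0.05, members whose groups do not overlap, and members called without cow 489215. Pathway lists name genes at an unadjusted p under 0.05, at most 4 per list. The fold changes of NR0B1 and RXRA, values of other members in each cow, and genes named outside this rule, were picked after their values were seen. Transcript lengths were not available, so the gene highest in counts within a marker list is ranked by counts alone, which depend on length, and levels are otherwise not compared between genes.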

Additional observations from a re-analysis of the deposited data

How the results depend on the processing

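With all 6 libraries 0 genes and 0 members passed the threshold in limma, and 3 members had an unadjusted p under 0.05. DESeq2 on 6 libraries gave 410 genes, or 2.66%, and 2 members, and edgeR gave 5 members at an unadjusted p under 0.05, against 8.56% of all genes. Limma array weights, 0.0477 for cow 489215, gave 4581 genes, or 29.8%, and 10 members. Of these 10, 7 were among the 9 called by limma without that cow. Leaving out each cow in turn gave 0 to 2827 genes, 0 to 9 members past the threshold, 1 to 16 members at an unadjusted p under 0.05, and 7 to 22 members whose groups did not overlap. The upper values all came from leaving out cow 489215, when 33.9% of all genes had an unadjusted p under 0.05 and 52.0% did not overlap, and the 1 from leaving out cow 79. Among the alternatives chosen after seeing the data, DESeq2 without cow 489215 gave 3912 genes, or 25.2%, and 10 members past the threshold. The edgeR fit without this cow gave 2800 genes, or 18.1%, and 9 members. At an unadjusted p under 0.05, DESeq2 without cow 489215 gave 17 members and edgeR without it gave 15. The share of all genes at that unadjusted p was not counted for these fits, so 17 and 15 cannot show an excess.

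For the 12 members that the rule for fold changes took, 17 alternatives gave 203 values. Direction and side of the threshold were kept in 161, 30 kept the direction and passed the threshold, and 12 had the opposite sign. The 12 lay in RORA, NCOA2 and NCOA3, and the other 9 of these 12 kept their sign under each alternative run. NR0B1, outside the rule, was -0.23 in limma, 0.54 in edgeR and 0.57 in DESeq2 with 6 libraries, and it and RXRA are not in this tally. The log2 fold change of RORA went from -0.37 to 0.81 over the fits that left out a cow. That of NCOA2 went from -1.35 to 0.45, and was 0.39 with array weights, 0.44 in DESeq2 and 0.44 in edgeR without cow 489215. That of NCOA3 went from -0.96 to 0.56, and was 0.064 in edgeR, 0.062 in DESeq2, 0.48 with array weights, and 0.55 in both DESeq2 and edgeR without cow 489215. Over the alternatives RXRG ran from 0.78 to 2.15, NR2F2 from -0.91 to -0.08 and NCOA5 from 0.014 to 0.41, and without cow 97 RXRG gave no value because it did not pass the filter. The cause was not tested.

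Fits without a cow compare 2 cows with 3. RXRG rests on 10 to 118 reads per library and NR5A2 on 27 to 141. Counts of 0 in NR1H4 and NR2E3 do not show absence. PRMT1, a broadly expressed methyltransferase, was also at 0 in all 6 libraries, and whether such zeros come from depth, the annotation or the counting of unique reads was not tested.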
